A study of Homo sapiens with 8 samples.

Results

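The responses of 2 multiple myeloma (MM) cell lines to fluvastatin were compared gene by gene, as the log2 fold change of fluvastatin over ethanol in KMS11 minus the log2 fold change of fluvastatin over ethanol in H929. This difference was computed for 13129 protein-coding genes that were expressed highly enough to be tested, of 19683 protein-coding genes and 58219 genes listed in all. A positive difference means that a gene rose more, or fell less, in KMS11 than in H929. H929 and KMS11 are established human MM lines that both carry t(4;14), the translocation that deregulates FGFR3 and NSD2. The 4 groups were H929 with ethanol, H929 with 2 µM fluvastatin, KMS11 with ethanol and KMS11 with 2 µM fluvastatin, each for 24 h and each with 2 biological replicates, so that 8 RNA-seq libraries entered the comparison. Ethanol is the solvent of fluvastatin and served as its control. Each line stands for 1 cell line only, so a difference between H929 and KMS11 is a difference between these lines and not between classes of MM.

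Fluvastatin is a statin, a drug that blocks the mevalonate pathway at an early step. This pathway makes cholesterol and also the isoprenoids that anchor small GTPases in membranes. When sterols run low, the transcription factor SREBP2 is cleaved and raises the enzymes of sterol synthesis, while loss of isoprenoids acts on small GTPases, the cytoskeleton and the cell cycle. The integrated stress response (ISR) is another program, in which ATF4 raises genes of amino acid supply and tRNA charging.

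Totals ranged from 26702515 to 41910446 estimated counts per library. All 13 plasma cell and t(4;14) markers were present, with summed levels of 5010 to 8340 TPM per library, and of 14 markers of T cells, myeloid cells, fibroblasts and epithelium 10 stayed under 1 TPM in every library and CD14, CSF1R, COL1A2 and COL3A1 were at 0. The summed level of these 14 markers was 40 to 46.9 TPM in KMS11 and 2.07 to 4.28 TPM in H929. Libraries also differed in how the level of a gene depended on its GC content. The log2 level of the genes of highest GC relative to those of lowest GC was 0.854 and 0.425 in H929 with ethanol, 0.479 and -0.0251 in H929 with fluvastatin, -0.776 and -0.724 in KMS11 with ethanol, and 0.327 and -0.559 in KMS11 with fluvastatin. KMS11 fluvastatin replicate 1 therefore stood apart from the other KMS11 libraries, and the GC trend fell with fluvastatin in H929 and rose with fluvastatin in KMS11. GC-rich genes thus move with the contrast itself, and values with the trend removed, or without KMS11 fluvastatin replicate 1, are given beside the results they touch. What part of a result this trend accounts for was not tested beyond those values.

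**Figure D1:**
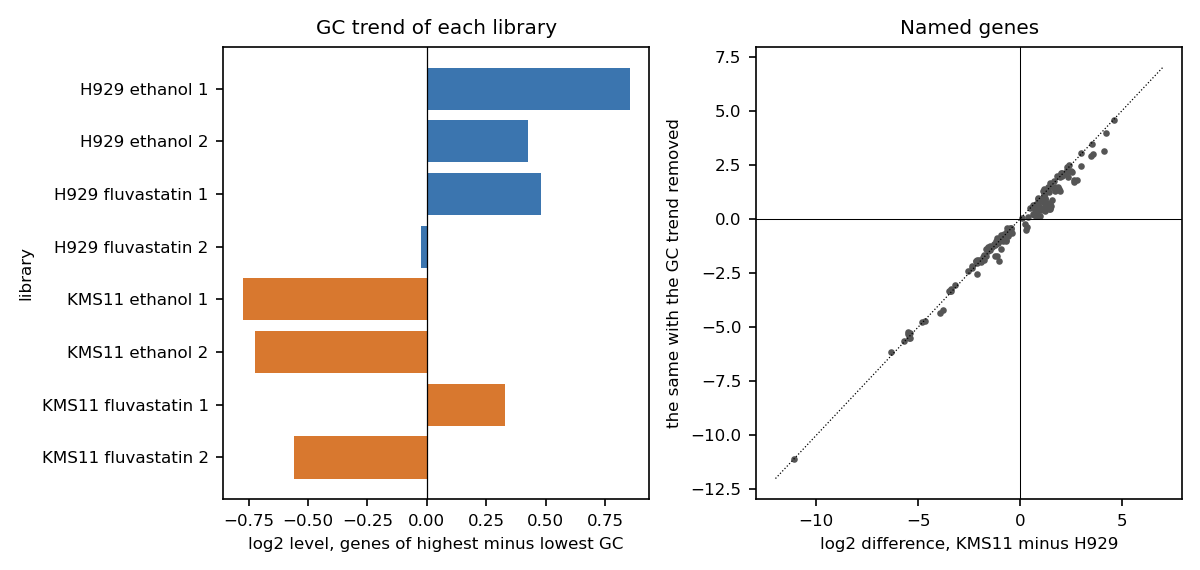
Left, log2 level of genes of highest minus lowest GC content in each of the 8 libraries, with H929 in blue and KMS11 in orange. Right, log2 difference between the lines of each named gene as fitted and with the GC trend removed (dotted, equal values); KMS11 fluvastatin replicate 1, at 0.327, is the KMS11 library above 0, and nearly all named genes keep their sign.

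The lines differed widely. The difference passed an adjusted p of 0.05 in the quasi-likelihood test of edgeR, adjusted by Benjamini-Hochberg, for 3048 genes, 23.2% of those tested, with 1542 (11.7%) more positive and 1506 (11.5%) more negative in KMS11. In H929 alone 2982 genes rose (22.7%) and 2529 fell (19.3%), against 339 that rose (2.58%) and 70 that fell (0.533%) in KMS11. The calls of both lines used a spread estimated over all 4 groups, not within each line. Genes were sorted by what they did in each line. A gene counted as opposite when it passed the threshold in both lines with different signs, and as moving in 1 line only when it passed in that line while the 95% interval of its change in the other line lay within 1.5-fold either way. By these rules 27 genes (0.206%) moved in opposite directions, 1784 (13.6%) moved in H929 only, 53 (0.404%) moved in KMS11 only, and 70 (0.533%) moved the same way in both lines by unequal amounts. The remaining 1114 genes (8.49%) differed between the lines but could be put in none of these classes, and 841 of them had passed in H929. Thus 265 genes passed the threshold in both lines, and 27 of these went opposite ways.

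**Figure D2:**
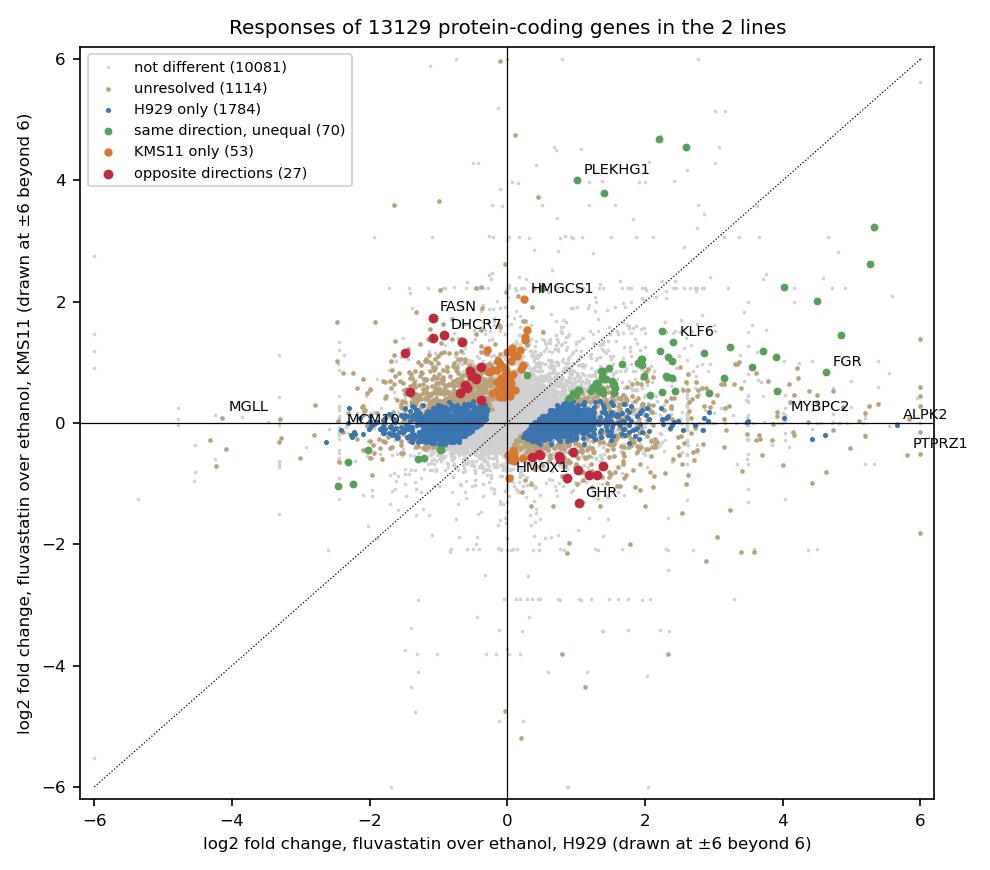
Log2 fold change of fluvastatin over ethanol in H929 (x) and KMS11 (y) for 13129 protein-coding genes, coloured by class, with the number of genes in brackets and values beyond 6 drawn at the edge. The H929-only genes spread along the horizontal axis, the KMS11-only genes sit near x = 0, and the 27 opposite genes fill the upper left and lower right.

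The genes that rose in KMS11 and fell in H929 were led by enzymes of cholesterol and fatty acid synthesis. Of these 15 genes, 6 were in the list of sterol genes (among them DHCR7, ACAT2, EBP, FDPS and HSD17B7) and 2 were in the list of fatty acid genes (FASN and ACLY). The other 7 were TMEM97, PGD, MASTL, DVL2, ADCY1, STON2 and SPON2. Going the other way, 12 genes rose in H929 and fell in KMS11, and these held no member of either list. In all 27 genes the libraries of the 2 treatments did not overlap within either line, while 71.0% of all tested genes did not overlap in H929, 53.4% did not in KMS11, and 12.9% did so in both with opposite directions. The 27 genes were chosen by passing in both lines, so this separation largely follows from the choice and is no separate support.

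DHCR7, an enzyme of late cholesterol synthesis, went from 46.8 and 36.1 reads scaled to library size (CPM) to 25 and 18.9 CPM in H929 and from 47.5 and 54.9 CPM to 158 and 121 CPM in KMS11. ACAT2, which joins acetyl-CoA units at the start of the pathway, went from 29.4 and 27.9 CPM to 18.4 and 17.8 CPM in H929 and from 67.8 and 76.0 CPM to 169 and 196 CPM in KMS11. Both genes started from a similar or higher level in KMS11 and the gap widened with fluvastatin. Their log2 differences were 2.36 ± 0.25 for DHCR7 (adjusted p = 4.3e-04, edgeR) and 2.00 ± 0.15 for ACAT2 (adjusted p = 9.5e-05, edgeR), and both stayed opposite with the GC trend removed (1.92 and 2.09).

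FDPS makes farnesyl pyrophosphate, the branch point between sterols and isoprenoids, and moved less. Its level fell from 329 and 290 CPM to 230 and 206 CPM in H929 and rose from 372 and 410 CPM to 638 and 694 CPM in KMS11, a log2 difference of 1.28 ± 0.15 (adjusted p = 5.9e-04, edgeR). EBP, a sterol isomerase, fell from 70.9 and 63.2 CPM to 44.4 and 43.6 CPM in H929 and rose from 113 and 121 CPM to 187 and 172 CPM in KMS11. HSD17B7, a sterol reductase, fell from 32.4 and 28.9 CPM to 24.5 and 22.3 CPM in H929 and rose from 19.9 and 23.4 CPM to 38.4 and 43.8 CPM in KMS11. These 3 genes changed by similar amounts, with log2 fold changes of -0.39 to -0.61 in H929 and 0.62 to 0.93 in KMS11.

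FASN, the fatty acid synthase (chr17:82078338-82098294), had the largest difference of the opposite genes and also the widest spread. It read 210 and 131 CPM in H929 with ethanol against 105 and 56.3 CPM with fluvastatin, and 71.3 and 68.2 CPM in KMS11 with ethanol against 330 and 137 CPM with fluvastatin. The higher KMS11 value came from replicate 1, the library with the different GC trend, and FASN has a GC content of 65.3%. Its log2 difference was 2.82 ± 0.56 (adjusted p = 0.0069, edgeR), fell to 1.80 with the GC trend removed and was 2.08 without KMS11 fluvastatin replicate 1, where its rise in KMS11 was no longer called. ACLY, which supplies acetyl-CoA to both pathways, was steadier at 294 and 270 CPM against 211 and 199 CPM in H929 and 517 and 539 CPM against 935 and 809 CPM in KMS11, a log2 difference of 1.18 ± 0.14 (adjusted p = 6.4e-04, edgeR).

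TMEM97, a membrane protein that binds sterols and the cholesterol transporter NPC1, had the strongest fall in H929 among the lipid-linked genes of the opposite class. It went from 123 and 146 CPM to 46.4 and 54.8 CPM in H929 and from 164 and 170 CPM to 233 and 246 CPM in KMS11, a log2 difference of 1.93 ± 0.16 (adjusted p = 1.3e-04, edgeR). Its change in KMS11 was 0.52 ± 0.11 (adjusted p = 0.039, edgeR), and 0.55 without KMS11 fluvastatin replicate 1, where TMEM97 no longer counted as opposite. PGD, an NADPH-producing enzyme of the pentose phosphate pathway, had the smallest difference of the 15 genes. It read 120 and 117 CPM against 89.5 and 90.6 CPM in H929 and 141 and 140 CPM against 190 and 178 CPM in KMS11, a log2 difference of 0.78 ± 0.12 (adjusted p = 0.0021, edgeR). The PGD change in KMS11 was 0.38 ± 0.08 (adjusted p = 0.041, edgeR), and 0.33 without KMS11 fluvastatin replicate 1, where PGD counted as H929 only. MASTL, a mitotic kinase, read 69.3 and 74.0 CPM against 43.8 and 45.2 CPM in H929 and 85.5 and 83.5 CPM against 110 and 129 CPM in KMS11. SPON2, a secreted matrix protein, lost its place among the opposite genes when the GC trend was removed and was the only one of the 27 to do so.

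The promoters of 4 opposite genes are shown as examples. These genes moved together and belong to, or are linked with, the same pathway, as do HSD17B7 and ACLY, which are not shown. Each is the 250 bases before the gene start in RefSeq (GRCh38.p14), read 5′ to 3′ on the strand of the gene, with the letters CCAAT or their reverse complement in capitals. FDPS is at chr1:155308616-155308865 (plus strand), DHCR7 at chr11:71448394-71448643 (minus strand), EBP at chrX:48521558-48521807 (plus strand) and TMEM97 at chr17:28318950-28319199 (plus strand).
FDPS: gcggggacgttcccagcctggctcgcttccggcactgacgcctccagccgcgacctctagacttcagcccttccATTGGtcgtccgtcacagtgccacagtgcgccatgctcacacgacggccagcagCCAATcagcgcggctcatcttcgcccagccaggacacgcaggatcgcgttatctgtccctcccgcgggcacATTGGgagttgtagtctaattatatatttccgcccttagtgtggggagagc
DHCR7: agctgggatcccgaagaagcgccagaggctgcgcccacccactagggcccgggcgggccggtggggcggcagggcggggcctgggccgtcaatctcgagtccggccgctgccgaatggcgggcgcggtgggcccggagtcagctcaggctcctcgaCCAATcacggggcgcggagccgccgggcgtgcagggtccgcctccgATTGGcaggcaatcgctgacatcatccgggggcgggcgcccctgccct
EBP: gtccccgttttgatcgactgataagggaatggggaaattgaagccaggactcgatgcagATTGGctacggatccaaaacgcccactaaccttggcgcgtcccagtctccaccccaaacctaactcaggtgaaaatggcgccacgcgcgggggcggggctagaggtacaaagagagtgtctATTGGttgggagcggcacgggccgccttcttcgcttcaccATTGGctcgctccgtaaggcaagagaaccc
TMEM97: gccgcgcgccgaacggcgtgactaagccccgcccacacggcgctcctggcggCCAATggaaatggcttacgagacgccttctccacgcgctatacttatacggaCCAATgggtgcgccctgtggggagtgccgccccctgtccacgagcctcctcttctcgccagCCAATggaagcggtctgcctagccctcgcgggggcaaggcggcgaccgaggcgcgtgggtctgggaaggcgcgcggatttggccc

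CCAAT is the letters bound by NF-Y, a general promoter factor known to act beside SREBP at sterol genes, and was searched on both strands after the values had been seen. FDPS, EBP and TMEM97 each held 3 matches and DHCR7 held 2 in these bases. The other matched genes that rose in KMS11 and fell in H929 held fewer or as many as DHCR7. ACLY, PGD and STON2 held 2, HSD17B7 and DVL2 held 1, and MASTL, ADCY1 and SPON2 held 0. In windows that also take in 50 bases after the start, CCAAT was in 9 of the 12 matched promoters (75%) of genes that rose in KMS11 and fell in H929, in 4 of 6 (66.7%) of the reverse group, in 15 of 18 (83.3%) of the sterol list and in 35.7% of all 27305 promoters. The ER chaperone list, which moved otherwise, held it in 26 of 32 promoters (81.2%), so the letters are not particular to the opposite genes. The letters TCACNCCAC, a form of the sterol regulatory element, were in 1 of 18 sterol promoters (SREBF2) and in 1.15% of all promoters, and no match says only that this spelling is not in the window. Among genes that fell in H929 only, the E-box letters CACGTG were in 14.7% of 719 promoters, against 9.69% of 764 for genes that rose in H929 only and 10.1% of all tested genes that matched. A match is a description of letters and not of binding.

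The 12 genes that rose in H929 and fell in KMS11 had varied roles. GHR, the growth hormone receptor (chr5:42423439-42721878), rose from 3.44 and 3.64 CPM to 6.81 and 7.73 CPM in H929 and fell from 1.2 and 1.2 CPM to 0.361 and 0.574 CPM in KMS11. SIX4, a homeobox transcription factor, rose from 15.3 and 13.3 CPM to 24.5 and 27.7 CPM in H929 and fell from 23.3 and 19.1 CPM to 13.0 and 9.76 CPM in KMS11. GALNT4, which starts O-glycans on proteins, rose from 54.1 and 47.8 CPM to 131 and 135 CPM in H929 and fell from 19.5 and 22.1 CPM to 12.2 and 13.2 CPM in KMS11. For all 3 genes the ethanol and fluvastatin libraries did not overlap within either line, which largely follows from how the genes were chosen. Log2 differences were -2.36 ± 0.37 for GHR (adjusted p = 0.0023, edgeR), -1.77 ± 0.25 for SIX4 (adjusted p = 0.0014, edgeR) and -2.09 ± 0.16 for GALNT4 (adjusted p = 9.5e-05, edgeR). Their changes in KMS11 alone had adjusted p of 0.044, 0.025 and 0.010 (edgeR), in that order. The KMS11 change of GHR was -1.32, and -1.07 without KMS11 fluvastatin replicate 1, where GHR no longer counted as opposite.

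SCN3A, a voltage-gated sodium channel, rose from 49.5 and 47.9 CPM to 114 and 126 CPM in H929 and fell from 4.57 and 3.58 CPM to 2.42 and 2.14 CPM in KMS11, so the line with the low level was the line in which it fell. METTL7A, a methyltransferase of lipid droplets, showed the reverse order of levels, with 4.25 and 4.28 CPM against 8.83 and 10.5 CPM in H929 and 58.7 and 54.1 CPM against 32.4 and 30.4 CPM in KMS11. MEF2C, a transcription factor of B cells and muscle, rose from 264 and 259 CPM to 483 and 534 CPM in H929 and fell from 32.7 and 33.1 CPM to 23.0 and 24.1 CPM in KMS11. The log2 differences of these genes were -2.15 ± 0.20, -2.03 ± 0.19 and -1.44 ± 0.13, with adjusted p of 2.1e-04, 2.0e-04 and 1.5e-04 (edgeR). Their changes in KMS11 alone had adjusted p of 0.025, 0.0055 and 0.024 (edgeR), in that order. The KMS11 change of MEF2C was -0.48, and -0.45 without KMS11 fluvastatin replicate 1, where MEF2C no longer counted as opposite. HS3ST3B1, a heparan sulfate sulfotransferase, had a log2 difference of -1.79 ± 0.16. PFN2, an actin-binding profilin, had a log2 difference of -1.3 ± 0.18, and SLIT2, a secreted guidance cue, one of -1.36 ± 0.25. SRGN, MANEA and PDE3B completed the group with differences of -1.0, -0.97 and -0.92.

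Among the 27 opposite genes the starting level was higher in KMS11 for 14. Without KMS11 fluvastatin replicate 1, 14 of the 27 remained opposite, among them DHCR7, ACAT2, FDPS, EBP, HSD17B7, ACLY, GALNT4, SCN3A, METTL7A, HS3ST3B1 and SIX4. When the first ethanol library of KMS11 was left out 2 remained, and 4 when the second was.

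**Figure D3:**
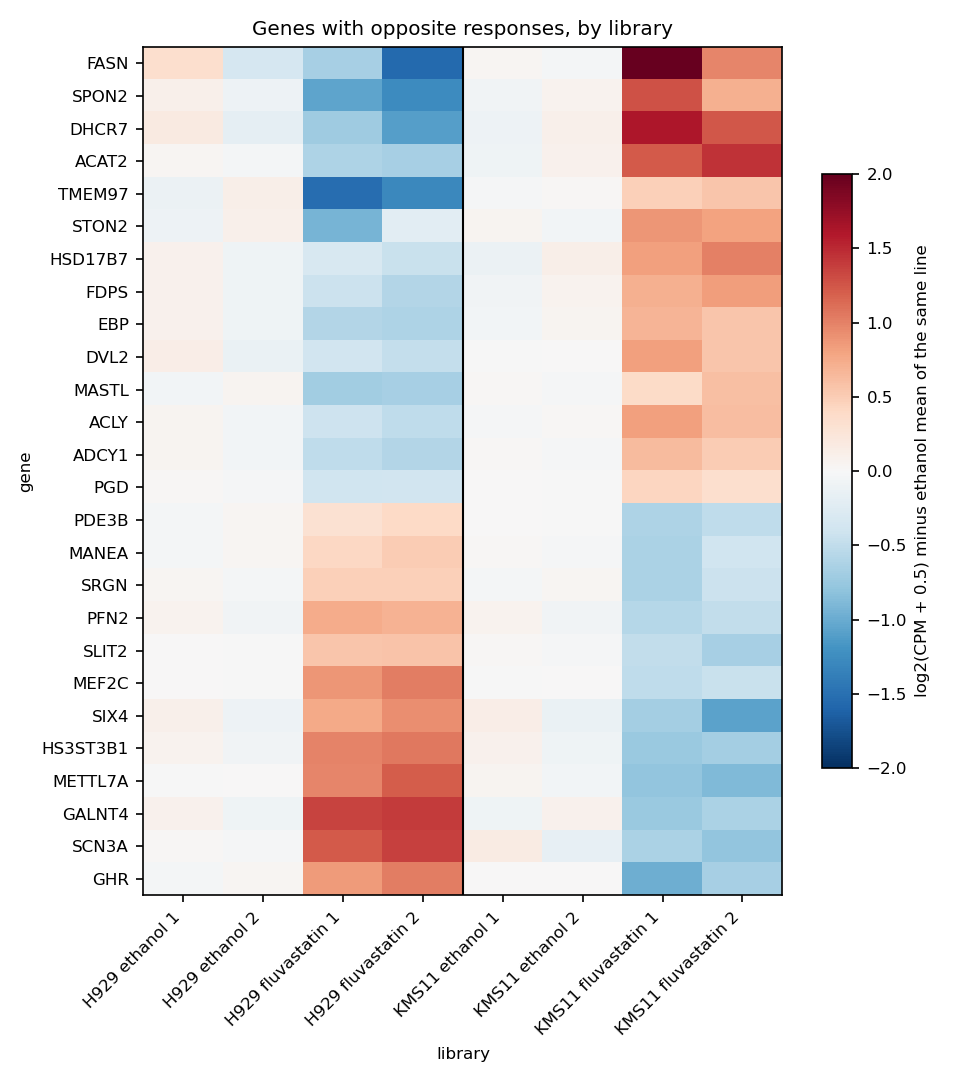
Level of 26 of the 27 opposite genes in each library, as log2(CPM + 0.5) minus the mean of the 2 ethanol libraries of the same line (colour, limited to ±2). The upper 14 genes are blue in H929 fluvastatin and red in KMS11 fluvastatin, and the lower 12 are the reverse; FASN differs between the KMS11 replicates, at 330 and 137 CPM.

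KMS11 only rises were also led by sterol synthesis. Of the 43 genes that rose in KMS11 only, 9 were sterol genes, among them HMGCS1, IDI1, FDFT1, SQLE, CYP51A1, MSMO1 and NSDHL. With the GC trend removed IDI1 and NSDHL counted as opposite, with H929 changes of -0.24 and -0.22. HMGCS1, the synthase that makes HMG-CoA (chr5:43287470-43313512), read 72.1 and 71.3 CPM against 84.3 and 84.5 CPM in H929 and 175 and 173 CPM against 645 and 786 CPM in KMS11. The H929 libraries also lay apart by treatment, but the log2 change there was 0.24 ± 0.10 and did not pass (adjusted p = 0.098, edgeR). The change in KMS11 was 2.04 ± 0.11, and the difference was 1.80 ± 0.15 (adjusted p = 1.1e-04, edgeR).

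SQLE, which turns squalene into its epoxide, read 71.3 and 62.2 CPM against 58.9 and 50.7 CPM in H929 and 127 and 116 CPM against 264 and 297 CPM in KMS11, a log2 difference of 1.49 ± 0.16 (adjusted p = 4.6e-04, edgeR). With the GC trend removed SQLE moved into the opposite class. FDFT1, the squalene synthase, read 58.2 and 48.5 CPM against 60.9 and 51.6 CPM in H929 and 127 and 134 CPM against 300 and 319 CPM in KMS11.

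Over the sterol list as a whole, 21 of the 24 tested members differed between the lines, all more positive in KMS11, or 87.5% against a background of 23.2%. In KMS11 22 members rose, against 2.58% of all tested genes. In H929 7 fell and 1, SC5D, rose, against 19.3% and 22.7% of all tested genes. The median log2 change was -0.28 in H929 and 1.19 in KMS11, and the median difference was 1.2, against 0.002 over all tested genes. It ranged from 1.17 to 1.33 when each library was left out and 21 members also passed with the GC trend removed. MVD, a mevalonate pathway decarboxylase, had the largest difference of the list in the fit of all 8 libraries, at 2.67 ± 0.43 (adjusted p = 0.0027, edgeR). It read 11.4 and 8.60 CPM against 9.36 and 5.44 CPM in H929 and 8.59 and 8.29 CPM against 50.7 and 28.3 CPM in KMS11. The higher KMS11 value, 50.7 CPM, came from fluvastatin replicate 1, the library with the different GC trend, so the rank of MVD may depend on that library. The members that did not pass were PMVK, SC5D and SREBF2, with adjusted p of 0.058, 0.22 and 0.098 (edgeR).

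Of the 21 fatty acid genes 9 were more positive and 1, ACSL1, more negative in KMS11 (47.6%, against 23.2% of all tested genes). Their median difference was 0.35. SCD, the desaturase that makes oleic acid, read 490 and 391 CPM against 243 and 145 CPM in H929 and 763 and 848 CPM against 1126 and 1145 CPM in KMS11. FADS1, a desaturase of polyunsaturated fatty acids, read 143 and 111 CPM against 71.9 and 47.9 CPM in H929 and 53.5 and 57.5 CPM against 83.6 and 86.3 CPM in KMS11. Both fell in H929, and their changes in KMS11, at 0.50 ± 0.20 and 0.61 ± 0.18, did not pass (adjusted p = 0.19 and 0.094, edgeR). FADS1 counted as opposite with the GC trend removed and with the replicate number as a block, and SCD with the block. ACSS2, which makes acetyl-CoA from acetate, rose in KMS11 by 1.69 ± 0.16 and had a change of 0.26 ± 0.17 in H929 (adjusted p = 0.25, edgeR). SREBF1 itself had a log2 difference of 0.35 ± 0.39 (adjusted p = 0.55, edgeR).

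Outside lipid synthesis, PHF19, a subunit of a histone methyltransferase complex, rose in KMS11 only, from 98.4 and 122 CPM to 328 and 313 CPM, while H929 read 160 and 149 CPM against 195 and 183 CPM. Its H929 change of 0.29 ± 0.11 did not pass (adjusted p = 0.061, edgeR), and with the GC trend removed it counted as rising in both lines. CLU, a secreted chaperone, and LPCAT1, which remodels phospholipids, also rose in KMS11 only, with log2 differences of 1.07 and 1.09. These 2 genes were chosen after their values were seen.

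The 10 genes that fell in KMS11 only had small changes. HMOX1, heme oxygenase, read 10.8 and 11.0 CPM against 10.0 and 12.3 CPM in H929 and 31.3 and 34.6 CPM against 20.1 and 15 CPM in KMS11, a log2 difference of -0.95 ± 0.24 (adjusted p = 0.020, edgeR). Other falls were those of JAG1, a Notch ligand, GLDC, a glycine-cleaving enzyme, ZFP36L2, an mRNA decay factor, and AMPD1, an AMP deaminase, with differences between -0.58 and -0.71. AMPD1 in KMS11 lay between 0.546% and 0.956% of its H929 level. These 5 differences missed the threshold without KMS11 ethanol replicate 2, and 4 of them (HMOX1, JAG1, ZFP36L2 and AMPD1) also without other libraries. Of all 53 KMS11-only genes, 26 kept their class without KMS11 fluvastatin replicate 1, 8 when the first and 11 when the second ethanol library of KMS11 was left out, and 35 with the GC trend removed.

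**Figure D4:**
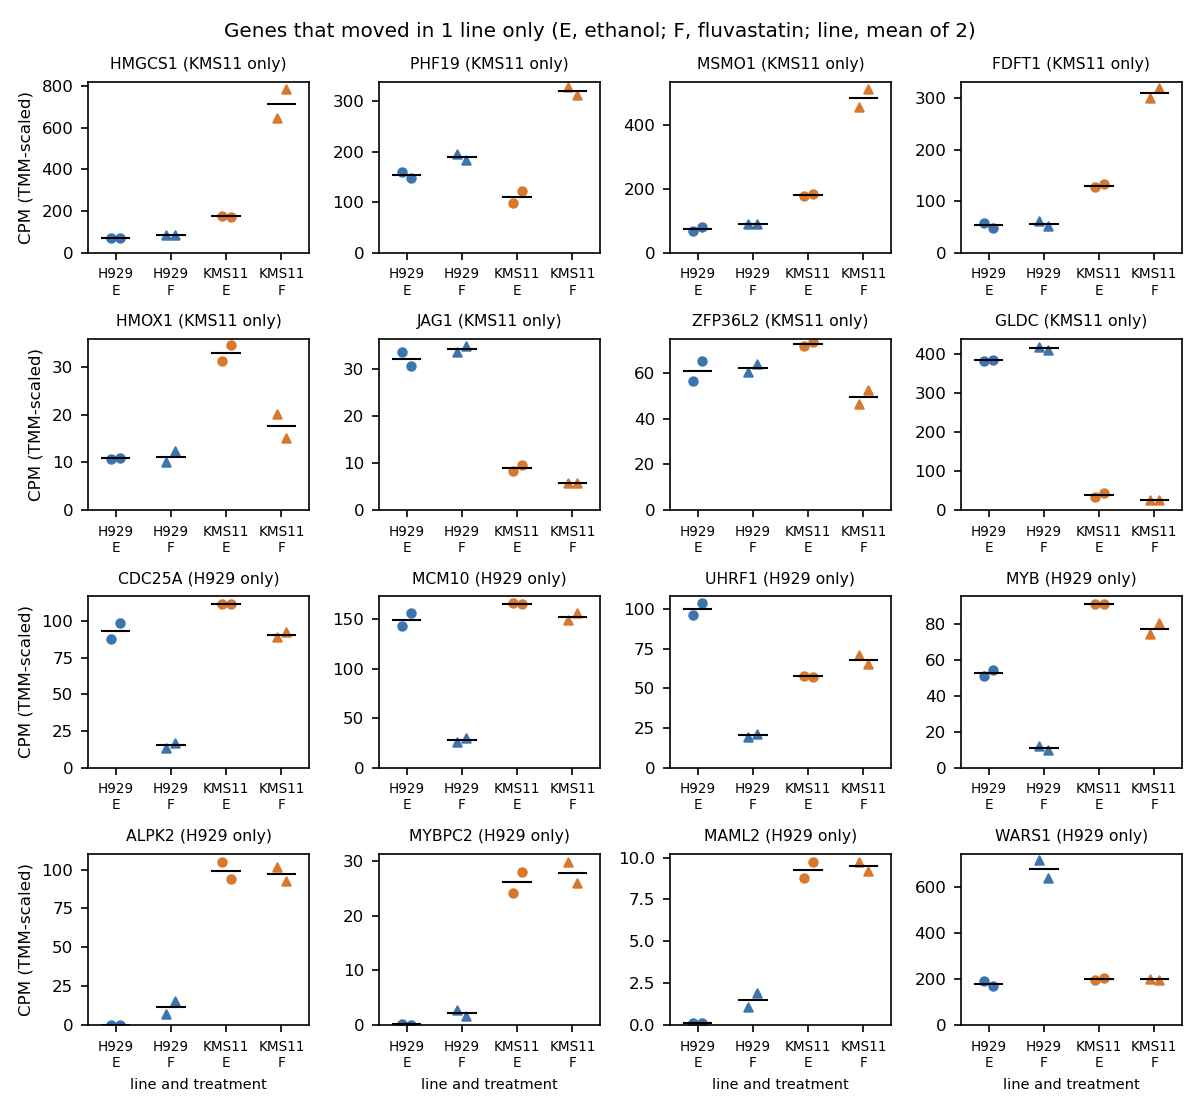
TMM-scaled CPM in each library for 16 genes that moved in 1 line only, with H929 in blue, KMS11 in orange, ethanol as circles, fluvastatin as triangles and the mean of 2 as a bar. HMGCS1 reaches 645 and 786 CPM in KMS11 with fluvastatin while H929 stays at 71.3 to 84.5 CPM, and MCM10 falls to 25.8 and 30.2 CPM in H929 while KMS11 stays at 149 to 166 CPM.

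H929 only falls were led by DNA replication. In bulk RNA, fewer cells that express a gene and less RNA of it per cell cannot be told apart. MCM10, a factor that activates the replicative helicase (chr10:13161558-13211110), fell from 143 and 156 CPM to 25.8 and 30.2 CPM in H929 and read 166 and 165 CPM against 149 and 156 CPM in KMS11. CDC25A, a phosphatase that drives entry into S phase (chr3:48157146-48188417), fell from 88.0 and 98.9 CPM to 13.7 and 16.6 CPM in H929 and read 112 and 112 CPM against 88.9 and 92.5 CPM in KMS11. UHRF1, which maintains DNA methylation behind the fork, fell from 96.4 and 104 CPM to 19.1 and 21.5 CPM in H929 and read 57.9 and 57.3 CPM against 71.3 and 65.2 CPM in KMS11. In each gene the fall in H929 was far larger than the spread between replicates, which largely follows from choosing genes that passed there. Log2 changes in H929 were -2.42 ± 0.11, -2.63 ± 0.12 and -2.30 ± 0.11, against -0.12 ± 0.10, -0.31 ± 0.11 and 0.24 ± 0.10 in KMS11, and the differences had adjusted p of 5.2e-05, 5.9e-05 and 5.2e-05 (edgeR). With the GC trend removed CDC25A counted as falling in both lines.

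Of 45 replication genes 39 (86.7%) were more positive in KMS11, against 11.7% of all tested genes. Among them 40 fell in H929 and 32 were in the H929-only class, against 19.3% and 13.6% of all tested genes. The median log2 change was -1.2 in H929 and -0.06 in KMS11, and the median difference of 1.31 ranged from 1.24 to 1.37 without each library and was 1.2 with the GC trend removed. CDC45, part of the replicative helicase, fell from 51.6 and 51.8 CPM to 11.4 and 12 CPM in H929 and read 48.0 and 52.2 CPM against 54.3 and 51.5 CPM in KMS11. CDC6, which loads the helicase, fell from 230 and 242 CPM to 47.3 and 53.9 CPM in H929 and read 270 and 296 CPM against 231 and 267 CPM in KMS11. E2F1, a transcription factor of these genes, fell in H929 by 1.49 ± 0.12 on the log2 scale and had a change of 0.48 ± 0.12 in KMS11 (adjusted p = 0.061, edgeR). E2F2 rose in KMS11 only, by 0.68, and counted as rising in both lines with the GC trend removed (0.18 in H929 and 0.49 in KMS11). MYB, a hematopoietic transcription factor, fell in H929 from 50.8 and 54.2 CPM to 12.2 and 9.87 CPM and read 91.2 and 90.9 CPM against 74.2 and 80.5 CPM in KMS11. ILDR2, a membrane protein, was also among the 6 largest H929-only falls, from 2.35 and 4.44 CPM with ethanol to 0.615 and 0.725 CPM with fluvastatin in H929.

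Of 30 mitotic genes 7 (23.3%) were more positive in KMS11, against 11.7% of all tested genes in that direction and 23.2% in either, and the median difference of 0.34 was 0.18 without H929 ethanol replicate 2. AURKB, a mitotic kinase, fell from 65.9 and 57.9 CPM to 34.3 and 29.4 CPM in H929 and read 13.1 and 12.9 CPM against 17.0 and 14.2 CPM in KMS11. BIRC5, which acts with AURKB and blocks apoptosis, fell from 142 and 167 CPM to 86.0 and 87.9 CPM in H929 and read 155 and 156 CPM against 156 and 150 CPM in KMS11.

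Genes of RNA splicing, ribosome assembly and the proteasome fell in H929 and changed less in KMS11. Of 61 splicing genes 33 (54.1%) were more positive in KMS11 and 48 fell in H929, against 11.7% and 19.3% of all tested genes. Their median change was -0.64 in H929 and -0.19 in KMS11. SNRPB, a core spliceosome subunit, fell from 125 and 113 CPM to 56.7 and 52.4 CPM in H929 and read 119 and 121 CPM against 142 and 113 CPM in KMS11, a log2 difference of 1.21 ± 0.17 (adjusted p = 0.0013, edgeR). Of 54 ribosome assembly genes 24 were more positive and 1 more negative in KMS11 (46.3%, against 23.2% of all tested genes). In H929 47 of them fell, against 19.3% of all tested genes, and the median changes were -0.68 in H929 and -0.28 in KMS11. NCL, a nucleolar RNA-binding protein, fell in both lines, by 0.96 in H929 and 0.44 in KMS11 on the log2 scale. NHP2, a subunit of the pseudouridine-forming complexes, fell from 128 and 139 CPM to 61.0 and 69.2 CPM in H929 and read 80.1 and 74.2 CPM against 90.8 and 76.3 CPM in KMS11. Of 31 proteasome genes 14 (45.2%), all in the H929-only class, were more positive in KMS11, against 11.7% of all tested genes. PSMB5, the subunit that bortezomib binds, fell from 71.2 and 73.4 CPM to 42.8 and 43.0 CPM in H929 and read 91.5 and 104 CPM against 102 and 89.4 CPM in KMS11. PSMB5 lost its call without KMS11 ethanol replicate 1.

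The size of these differences depended on the GC trend for single members more than for the lists. The median difference was 0.47 for splicing, 0.39 for ribosome assembly and 0.40 for the proteasome, and 0.46, 0.38 and 0.41 with the trend removed. U2AF2, a splicing factor, went from a log2 difference of 1.18 to 0.53, LSM4, an Sm-like protein, from 1.23 to 0.67 and MYBBP1A, a nucleolar protein, from 1.3 to 0.67. Of 78 cytosolic ribosomal proteins 7 (8.97%) passed, under the background of 23.2%, and the 5 named ones had differences of 0.64 to 1.21 that became 0.12 to 0.80. RPL36 (0.96), RPL8 (0.77) and RPLP2 (0.64) did not pass once the trend was removed, and RPL8 and RPLP2 also lost their calls without either KMS11 ethanol library or several others. Likewise 11 of 51 respiratory chain genes (21.6%) were more positive in KMS11, against 11.7% of all tested genes in that direction and 23.2% in either. In H929 26 of the 51 fell, against 19.3% of all tested genes, but NDUFV1 and NDUFB10 did not pass the difference with the trend removed. ATP5MC1, a subunit of the ATP synthase ring, fell from 127 and 120 CPM to 56.2 and 53.1 CPM in H929 and read 217 and 262 CPM against 205 and 182 CPM in KMS11.

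ISR genes rose more in H929. Of 38 members 17 (44.7%) were more negative in KMS11, against 11.5% of all tested genes. Upward calls numbered 31 in H929 and 9 in KMS11, against 22.7% and 2.58% of all tested genes. The median changes were 0.89 in H929 and 0.39 in KMS11. WARS1, a tRNA synthetase, rose from 192 and 169 CPM to 719 and 642 CPM in H929 and read 194 and 207 CPM against 200 and 197 CPM in KMS11, a log2 difference of -1.93 ± 0.14 (adjusted p = 9.5e-05, edgeR). CTH, which makes cysteine, rose from 8.44 and 5.52 CPM to 47.3 and 53.4 CPM in H929 and read 0.966 and 1.04 CPM against 0.722 and 0.835 CPM in KMS11. SLC7A11, the cystine transporter, rose in both lines, from 31.4 and 25 CPM to 127 and 157 CPM in H929 and from 18.8 and 17.5 CPM to 25.9 and 35.5 CPM in KMS11. The tRNA synthetases GARS1 and CARS1, with PSAT1, ASNS, MTHFD2, STC2, CEBPB and CEBPG, were also in the H929-only class, with differences between -0.51 and -1.03.

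Among the regulators of this response, DDIT3, which encodes CHOP, rose in both lines and more in H929, from 7.42 and 6.72 CPM to 30.0 and 24.5 CPM against 3.78 and 4.10 CPM to 7.80 and 8.56 CPM in KMS11 (difference -0.89 ± 0.23, adjusted p = 0.021, edgeR, lost without either KMS11 ethanol library, H929 ethanol replicate 2 or H929 fluvastatin replicate 1). ATF3 rose from 5.58 and 5.16 CPM to 24.5 and 26.5 CPM in H929 and from 6.55 and 5.88 CPM to 30.4 and 32.7 CPM in KMS11, a difference of 0.10 ± 0.19 (adjusted p = 0.75, edgeR). PPP1R15A, which encodes GADD34, had a difference of 0.23 ± 0.24 (adjusted p = 0.53, edgeR), or -0.24 with the GC trend removed. ATF4 itself rose from 425 and 342 CPM to 674 and 571 CPM in H929 and read 282 and 249 CPM against 324 and 334 CPM in KMS11, where its change of 0.31 ± 0.13 did not pass, and the difference of -0.39 ± 0.18 did not pass either (adjusted p = 0.14, edgeR). With the GC trend removed the ATF4 difference was -0.63 and ATF4 counted as H929 only.

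Of 36 ER chaperones and degradation factors 5 were more positive and 4 more negative in KMS11 (25%), near the 23.2% of all tested genes. HERPUD1, a degradation factor, rose from 225 and 201 CPM to 382 and 387 CPM in H929 and read 288 and 305 CPM against 272 and 309 CPM in KMS11. ERN1, the ER stress sensor IRE1, rose from 195 and 185 CPM to 429 and 390 CPM in H929, while PDIA4, a disulfide isomerase, fell from 547 and 488 CPM to 297 and 249 CPM there. SDF2L1, a chaperone cofactor, differed by 1.45 ± 0.28 (adjusted p = 0.0065, edgeR), which became 0.50 and did not pass with the GC trend removed.

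Interferon genes mostly rose in H929, where 18 of 28 passed upward and 2 downward, against 1 each way in KMS11. Of all tested genes 22.7% passed upward and 19.3% downward in H929, and 2.58% and 0.533% in KMS11. Of these genes 8 were more negative in KMS11 and 1, BST2, more positive (32.1%, against 23.2% of all tested genes). The median changes were 0.82 in H929 and -0.01 in KMS11. OAS2, an antiviral RNA sensor, rose from 86.4 and 73.2 CPM to 162 and 157 CPM in H929 and read 2.01 and 2.08 CPM against 1.44 and 1.36 CPM in KMS11. IFIT1, an inhibitor of viral RNA translation, rose from 1.57 and 1.88 CPM to 4.74 and 6.57 CPM in H929 and read 2.22 and 2.60 CPM against 1.12 and 1.51 CPM in KMS11, a log2 difference of -2.57 ± 0.38 (adjusted p = 0.0018, edgeR). Of 25 antigen presentation genes 8 rose and 1 fell in H929, against 22.7% and 19.3% of all tested genes. The difference was more negative in KMS11 for 4 (16%), against 11.5% of all tested genes. With the GC trend removed 10 were more negative, against 18.1% of all tested genes. B2M, the light chain of MHC class I, rose from 890 and 1004 CPM to 1513 and 1806 CPM in H929 and read 4384 and 4655 CPM against 3760 and 4616 CPM in KMS11.

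**Figure D5:**
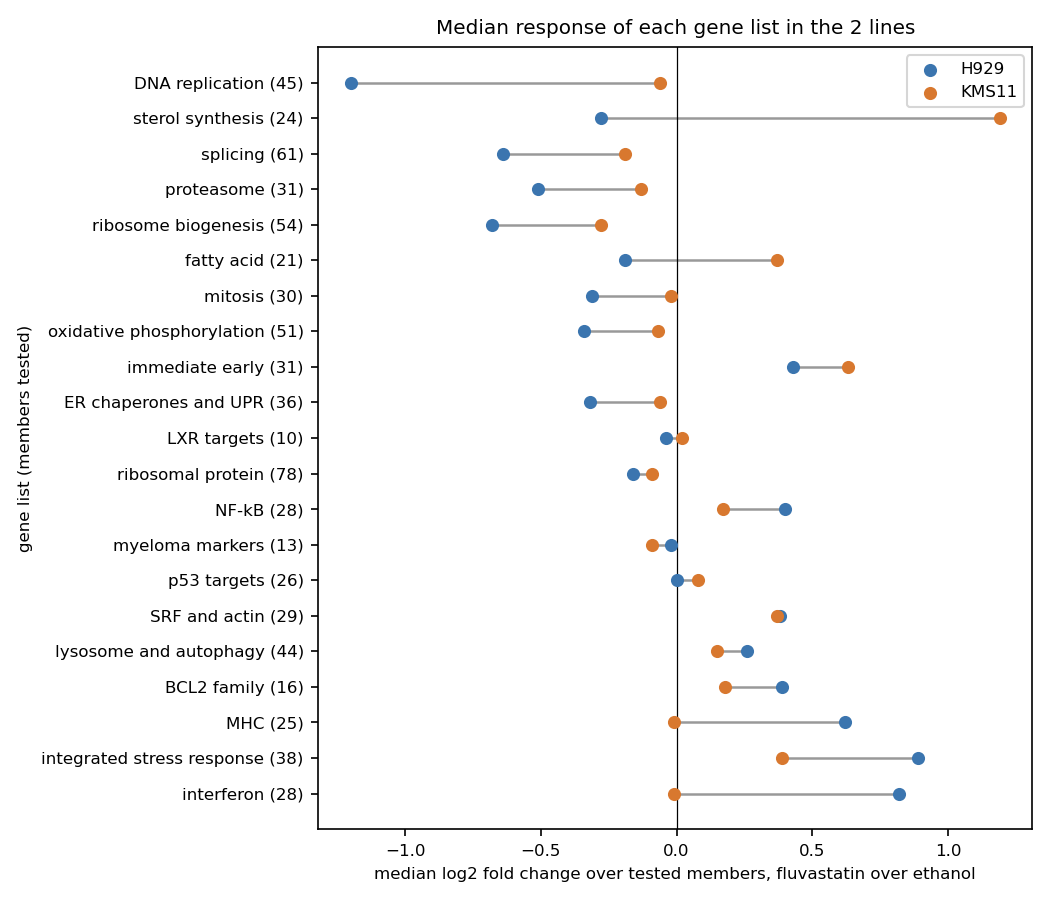
Median log2 fold change of fluvastatin over ethanol in H929 (blue) and KMS11 (orange) for gene lists with at least 10 tested members, ordered by the median difference (members tested in brackets). The sterol list sits at -0.28 and 1.19 and the DNA replication list at -1.2 and -0.06; both medians of the ISR list are above 0.

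RHOB, a small GTPase whose transcription responds to loss of prenylation (chr2:20447074-20449440), rose from 27.4 and 22 CPM to 978 and 1010 CPM in H929 and from 11.2 and 10.6 CPM to 125 and 80.4 CPM in KMS11, log2 changes of 5.33 ± 0.21 and 3.23 ± 0.20. The difference was -2.10 ± 0.27 (adjusted p = 8.9e-04, edgeR). RHOA and RHOC also rose in both lines and more in H929, with differences of -0.87 and -1.24, while RHOU and ARHGDIB passed in H929 alone. ARHGDIB, which keeps small GTPases soluble, rose from 3.20 and 2.52 CPM to 9.75 and 10.6 CPM in H929 and read 137 and 122 CPM against 120 and 118 CPM in KMS11. KLF2, a transcription factor of the Krüppel-like family, rose from 10.5 and 7.36 CPM to 57.6 and 48.0 CPM in H929 and from 0.287 and 0.328 CPM to 2.56 and 2.11 CPM in KMS11, and its difference of 0.34 ± 0.37 did not pass (adjusted p = 0.54, edgeR) and was -0.37 with the GC trend removed.

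Of the 70 genes that moved the same way by unequal amounts, 56 were more negative in KMS11. FGR, a Src family kinase (chr1:27612064-27635185), rose from 6.26 and 5.56 CPM to 159 and 134 CPM in H929 and from 6.05 and 5.63 CPM to 12.3 and 8.72 CPM in KMS11, so that equal starting levels ended far apart. Its log2 difference was -3.79 ± 0.25 (adjusted p = 5.2e-05, edgeR). KLF7, a transcription factor, rose from 0.919 and 1.0 CPM to 27.7 and 27.3 CPM in H929 and from 9.24 and 7.90 CPM to 25.3 and 21.6 CPM in KMS11, ending near the same level in both. KLF6 rose from 32.6 and 26.2 CPM to 159 and 153 CPM in H929 and from 74.5 and 74.3 CPM to 201 and 174 CPM in KMS11. VIM, the filament protein vimentin, rose from 1725 and 1893 CPM to 4522 and 4803 CPM in H929 and from 925 and 1003 CPM to 1610 and 1648 CPM in KMS11, and its difference missed the threshold without KMS11 ethanol replicate 2. JAZF1, a transcriptional regulator, rose from 0.238 and 0.240 CPM to 3.56 and 3.79 CPM in H929 and from 31.4 and 30.6 CPM to 42.4 and 47.2 CPM in KMS11.

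The reverse order was rarer. PLEKHG1, a GTPase exchange factor (chr6:150599883-150843665), rose from 0.681 and 0.760 CPM to 1.54 and 1.37 CPM in H929 and from a mean of 1.23 CPM to 17.0 and 22.5 CPM in KMS11, a log2 difference of 2.99 ± 0.36 (adjusted p = 7.2e-04, edgeR). CDKN1A, the cell cycle inhibitor p21, rose from 257 and 209 CPM to 370 and 296 CPM in H929 and from 2.56 and 3.17 CPM to 12 and 14.6 CPM in KMS11, and stayed far higher in H929. MAP1B, a microtubule protein, rose from 244 and 216 CPM to 593 and 617 CPM in H929 and from 0.861 and 0.848 CPM to 10.9 and 12.9 CPM in KMS11; its difference is a ratio of ratios and turned negative on the log2(TPM + 1) scale. CCL3, a chemokine with near-identical copies among which reads may be divided, rose from 109 and 89.1 CPM to 543 and 652 CPM in H929 and from 1.90 and 3.01 CPM to 40.6 and 73.8 CPM in KMS11, and lost its call without KMS11 ethanol replicate 1. ABCA1, the cholesterol efflux pump and an LXR target, fell in both lines, from 93.4 and 94.2 CPM to 17.3 and 16.7 CPM in H929 and from 137 and 159 CPM to 63.3 and 80.1 CPM in KMS11, a log2 difference of 1.42 ± 0.18 (adjusted p = 8.6e-04, edgeR). ABCG1, its partner in efflux, fell from 10.0 and 8.96 CPM to 2.20 and 1.65 CPM in H929 and from 46.1 and 42.3 CPM to 29.8 and 27 CPM in KMS11.

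Several genes rose in H929 from near 0 while KMS11 held them at a steady, higher level. ALPK2, a kinase, read 0.170 and 0.280 CPM against 7.12 and 15.6 CPM in H929 and 105 and 93.9 CPM against 102 and 92.5 CPM in KMS11, a log2 difference of -5.70 ± 0.57 (adjusted p = 3.2e-04, edgeR). MYBPC2, a muscle myosin-binding protein, read 0.170 and 0.080 CPM against 2.72 and 1.61 CPM in H929 and 24.2 to 29.8 CPM in KMS11. MAML2, a Notch coactivator, read 0.136 and 0.120 CPM against 1.05 and 1.89 CPM in H929, with 8.77 to 9.75 CPM in KMS11. With fluvastatin these 3 genes reached between 5.97% and 20.2% of their mean KMS11 level in H929. HLA-DRA and CDH17 were at a much lower share. HLA-DRA, an MHC class II chain, had 0 and 1 counts in H929 with ethanol and 8 and 18 counts with fluvastatin, or 0.0358% and 0.0739% of its KMS11 level, and CDH17, a cadherin, had 0 and 0 counts and then 1 and 3.

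A measured floor bears on such values. For 34 genes at 50 CPM or more in every KMS11 library and at no more than 0.5% of that level in H929, the median H929 level was 0.0238% and 0.0183% of the KMS11 level with ethanol and 0.0382% and 0.0704% with fluvastatin. HLA-DRA in H929 with fluvastatin thus lay at this median and CDH17, at 0.0434% and 0.119%, near it, so no fold is given for either. For 20 genes high in H929, the median level in KMS11 was 0.0510% and 0.0632% with ethanol and 0 and 0.0115% with fluvastatin. EVI2B and LAMP5, whose fitted differences were among the 8 most negative, had 3 and 3 and 2 and 9 counts in KMS11 with ethanol and 0 counts with fluvastatin, which is 0.0435% to 0.205% of their H929 level and then 0. GSTM2, the most positive fitted difference, had 0 and 0 counts in KMS11 with ethanol and 4 and 3 with fluvastatin. The GSTM2 difference missed the threshold without either KMS11 ethanol library or KMS11 fluvastatin replicate 1, and that of LAMP5 without KMS11 ethanol or fluvastatin replicate 2.

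The remaining large differences rested on varied numbers of reads. PTPRZ1, a receptor phosphatase, rose from 9 and 3 counts to 255 and 339 counts in H929 and had 27 and 51 counts against 21 and 27 counts in KMS11, a log2 difference of -6.32 ± 0.58 (adjusted p = 1.9e-04, edgeR). SCN2A, a sodium channel, rose from 1.40 and 1.32 CPM to 13.7 and 15 CPM in H929 and had at most 9 counts in any KMS11 library; its call was lost without KMS11 ethanol replicate 1. ENSG00000196826, a gene without a name, had 0 and 0 counts in H929 with ethanol and 30 and 94 with fluvastatin, and 266 and 182 against 17 and 101 in KMS11. RIPOR2 and PCDH18 rose in H929 from 0 and 0 and from 0 and 1 counts to 6 and 1 and to 9 and 25 counts, and the RIPOR2 difference missed the threshold without any 1 of 6 of the 8 libraries (highest adjusted p = 0.24, edgeR). MGLL, which breaks down monoacylglycerols, fell from 3.06 and 3.72 CPM to 0.132 and 0.242 CPM in H929 and read 3.58 and 4.51 CPM against 3.83 and 4.72 CPM in KMS11, a log2 difference of 4.22 ± 0.46 (adjusted p = 4.3e-04, edgeR). BMP7, a secreted growth factor, had 16 and 9 counts against 2 and 0 counts in H929, and its difference missed the threshold without any 1 of 5 libraries. CFAP298-TCP10L, a read-through gene whose reads overlap those of its parts, was also among the largest positive differences, and missed the threshold without H929 ethanol replicate 2 or either H929 fluvastatin library. The histone genes H3C13, H2AC15 and H2AC12 were as well, with log2 differences of 4.14, 3.58 and 3.5, or 3.15, 3.02 and 2.93 with the GC trend removed.

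MCL1, a survival factor of plasma cells, rose from 979 and 1013 CPM to 1881 and 1859 CPM in H929 and read 653 and 587 CPM against 548 and 601 CPM in KMS11, a log2 difference of -1.02 ± 0.13 (adjusted p = 9.1e-04, edgeR). BCL2L11, the proapoptotic BIM, also rose in H929 only, from 25.4 and 26 CPM to 61.8 and 74.3 CPM, against 31.2 and 30.6 CPM and 35.9 and 36.8 CPM in KMS11. BID, a proapoptotic protein, fell from 41.7 and 42.9 CPM to 25.3 and 24.3 CPM in H929 and read 69.1 and 72.4 CPM against 80.1 and 74.9 CPM in KMS11. Of the 16 tested family members 3 were more positive and 2 more negative in KMS11 (31.2%), and of 26 p53 targets 4 were more positive and 2 more negative (23.1%), near the 23.2% of all tested genes. Among the p53 targets was AEN, a nuclease, which fell in H929 only, from 161 and 180 CPM to 74.7 and 84.2 CPM.

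MYC moved in opposite directions by its fitted values, from 155 and 137 CPM to 189 and 194 CPM in H929 and from 351 and 393 CPM to 291 and 257 CPM in KMS11. Its rise in H929 passed and its change of -0.44 ± 0.10 in KMS11 did not (adjusted p = 0.054, edgeR), while the difference was -0.83 ± 0.15 (adjusted p = 0.0043, edgeR). Of the 28 NF-kappaB genes 4 were more positive and 3 more negative in KMS11 (25%), near the 23.2% of all tested genes, and the median difference of 0.05 was -0.30 with the GC trend removed, with 3 then more positive and 8 more negative. BIRC3, an inhibitor of apoptosis, rose in H929 from 2.14 and 2.16 CPM to 7.07 and 6.4 CPM and read 533 to 661 CPM in KMS11. CTSL, a lysosomal protease, rose from 23.7 and 23.1 CPM to 77.7 and 81.8 CPM in H929 and read 40.3 and 46.3 CPM against 32.8 and 36.2 CPM in KMS11. It was 1 of 5 lysosome and autophagy genes of 44 that were more negative, with 2 more positive (15.9%, against 23.2% of all tested genes). Of 31 immediate early genes 3 were more negative (9.68%), and of 29 actin and SRF genes 2 were more positive and 3 more negative (17.2%), against 23.2% of all tested genes. With the GC trend removed 13 of the actin and SRF genes and 8 of the immediate early genes were more negative, against 18.1% of all tested genes.

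Of the 13 plasma cell and t(4;14) markers 4 rose and 5 fell in H929, against 22.7% and 19.3% of all tested genes. In KMS11 1 fell, against 0.533% of all tested genes. FGFR3 read 85.9 and 53.7 CPM against 72.6 and 44.3 CPM in H929 and 501 and 463 CPM against 544 and 434 CPM in KMS11, a difference of 0.28 ± 0.35 (adjusted p = 0.59, edgeR) that was -0.50 with the GC trend removed. NSD2 rose from 902 and 792 CPM to 1162 and 1096 CPM in H929 and read 510 and 560 CPM against 524 and 542 CPM in KMS11, and its difference of -0.42 ± 0.14 missed the threshold (adjusted p = 0.051, edgeR). SDC1, the plasma cell antigen CD138, fell from 753 and 621 CPM to 376 and 274 CPM in H929 and read 183 and 181 CPM against 237 and 177 CPM in KMS11, a difference of 1.27 ± 0.24 (adjusted p = 0.0062, edgeR) that was 0.68 with the GC trend removed. SLAMF7, another surface antigen of plasma cells, fell from 473 and 415 CPM to 233 and 216 CPM in H929 and read 73.3 and 87.0 CPM against 65.5 and 82.0 CPM in KMS11, and lost its call without KMS11 ethanol replicate 1. CD3E, a T cell gene, rose from 4.08 and 4.40 CPM to 8.61 and 9.91 CPM in H929 while CD3D and CD2 stayed under 1 TPM, and was the 1 marker of another cell type that differed.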

How the data were processed

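RNA-seq of 8 libraries was used. The authors aligned reads to GRCh38 with STAR 2.5.2b and quantified genes with RSEM 1.3.0, and deposited expected counts and TPM per gene. Expected counts were rounded, restricted to protein-coding genes (GENCODE names), filtered with filterByExpr (minimum count 10, total 15) and scaled by TMM. A group-means model was fitted with edgeR 4.0.16 (R 4.3.3; common dispersion 0.0125), and the difference between lines was a contrast in its quasi-likelihood test, adjusted by Benjamini-Hochberg (threshold 0.05). Values are TMM-scaled CPM; SE was the log2 value divided by the square root of F. Replicates are biological according to the authors, 2 a group, and p-values rest on their spread.

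Members, gene lists and tests were chosen with earlier results of these data known. Named genes, required to average 1 or more in log2 CPM, were the 8 largest differences each way, up to 8 opposite genes each way, the 6 largest 1-line changes, the 3 most unequal same-direction genes, up to 5 members of each list and 10 fixed genes; others named complete a class or were chosen after their values were seen. Alternatives were DESeq2 1.42.0, limma 3.58.1 on voom or log2(TPM + 1), other scalings and filters, removal of the GC trend, a replicate block, stricter thresholds and leaving out each library. The fit was tested on simulated data. The number of libraries, 2 a group, limits precision. Some genes and a gene list are not reported here.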

Additional observations from a re-analysis of the deposited data

Results flagged for a closer look

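The response to fluvastatin differed between H929 and KMS11, by the test of the difference itself, for 3048 protein-coding genes; the single genes are those described above. Outside protein-coding genes, which the comparisons above did not use, the response also differed for 221 of 3424 tested non-coding genes (6.45%), with 95 positive and 126 negative differences, and 137 of them were lncRNAs. Examples, chosen after their values were seen, are LINC-PINT with a log2 difference of -1.40 (edgeR's quasi-likelihood test, adjusted p = 0.0034), TSPOAP1-AS1 with -1.36, LINC01480 with -1.28 and C19orf48P with 1.65 (adjusted p = 0.0061). TSPOAP1-AS1 is antisense to its neighbour, and whether counting used the strand of these stranded libraries is not given in the sources used here, so the pair may share reads.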

How the results depend on the processing

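Leaving out each library gave 1309 to 4269 genes that differed between the lines, 682 to 2342 more positive and 627 to 1927 more negative in KMS11, 63 to 2148 genes called within KMS11, 3 to 493 opposite, 524 to 1678 H929 only, 8 to 370 KMS11 only and 12 to 137 same-direction genes. Both extremes of the opposite count came from KMS11 libraries, with 3 without ethanol replicate 1 and 493 without fluvastatin replicate 2, and the group left with a lone sample is assumed to vary like the others. List medians ranged from -0.46 to -0.14 (BCL2 family), -0.22 to 0.48 (LXR), 0.18 to 0.40 (mitosis) and 0.31 to 0.46 (proteasome).

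With DESeq2 926 genes were called within KMS11, and 99 were opposite, 85 KMS11 only and 137 same-direction. Without a filter on low counts these counts were 1098, 152, 109 and 142. With limma on log2(TPM + 1) 223 were called within KMS11, 10 were opposite, 20 same-direction and 757 more positive, so 37.2% of called differences were positive against 50.6%, with a median over all genes of -0.08. On that scale list medians were 0.97 (replication), 0.13 (mitosis), 0.13 (respiratory chain), 0.22 (proteasome), 0.22 (ribosome assembly) and -0.11 (ribosomal proteins), and the differences of MAP1B and KLF2 turned to -0.48 and -1.47. With the GC trend removed 2375 genes were more negative, 1733 were called within KMS11, 170 were opposite, 2892 H929 only, 150 KMS11 only and 495 same-direction, and the medians were -0.37 (LXR) and -0.75 (antigen presentation). An adjusted p under 0.01 left 1258 genes (615 and 643), 7 opposite, 808 H929 only, 15 KMS11 only and 16 same-direction. A log2 difference of at least 1 left 1312 (696 and 616), 420, 14 and 36 of the last 3 classes, and a narrower interval for the other line left 545 H929 only and 19 KMS11 only genes. Other than by the construction of these settings, the cause was not tested.

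The labels do not say what a shared replicate number means. Deviations of same-numbered samples correlated at 0.702 in H929 and -0.0193 in KMS11 over 5872 genes, so they moved together in H929 and not in KMS11, and the numbers were not used to pair samples. With the replicate number as a block 4227 genes differed, 6426 were called within H929 against 5511 without it, 1637 were called within KMS11, and 233 were opposite, 186 KMS11 only and 272 same-direction. With the block and the GC trend removed 5743 genes differed (2705 and 3038), 3477 were called within KMS11, and 457 were opposite, 3150 H929 only, 345 KMS11 only and 1173 same-direction. The medians were then -0.38 (LXR), -0.15 (immediate early) and -0.75 (antigen presentation), and FGFR3 was at -0.52.

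Of 163 named genes 157 passed, and 40 of these missed the threshold without at least 1 library, 30 and 31 of them without a KMS11 ethanol library. With 2 libraries a group, differences that missed the threshold are not shown to be absent.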

Other observations

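Histone genes, a group chosen after their values were seen, were more positive in KMS11. Of 56 tested, 42 passed, against 11.7% of all tested genes in that direction, with a median log2 difference of 1.80, from -1.31 in H929 and 0.46 in KMS11. The KMS11 median was 0.20 without KMS11 fluvastatin replicate 1 and 0.29 with the GC trend removed. The median difference was 1.5 without KMS11 fluvastatin replicate 1, 1.95 without KMS11 fluvastatin replicate 2 and 1.43 with the GC trend removed. Many histone genes are near-identical copies, so reads may be divided among them.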
